A study of Homo sapiens with 4 samples.

Results

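TXNIP, the other alpha-arrestin genes ARRDC1, ARRDC2, ARRDC3 and ARRDC4, and the transcription factor genes MLX, MLXIP and MLXIPL were followed in 4 RNA sequencing libraries of A673 cells. They are 8 of the 23228 genes counted, taken by symbol. The set was chosen with these libraries in view, above all for the level of TXNIP in 1 control library, so all of its levels and ratios below are descriptions and none carries a test. A673 is an established Ewing sarcoma line. Every library came from cells transfected with siRNA by a lipid reagent and harvested 48 h later, with 1 library per group: scrambled siRNA (control_SMPD1), SMPD1 siRNA (siSMPD1), a second scrambled siRNA library titled as the control of the other knockdown (control_GPR64), and GPR64 siRNA (siGPR64). SMPD1 encodes acid sphingomyelinase and GPR64 an adhesion G protein-coupled receptor. All 4 groups share the line, the culture medium with added insulin, and the transfection. Values below follow the order control_SMPD1, siSMPD1, control_GPR64, siGPR64 unless libraries are named.

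Alpha-arrestins are adaptor proteins with an arrestin fold that bind membrane proteins and recruit ubiquitin ligases of the NEDD4 family to them. TXNIP also binds thioredoxin, and it lowers glucose uptake by removing glucose transporters from the cell surface. The TXNIP and ARRDC4 genes are known targets of MondoA (encoded by MLXIP) and its paralog ChREBP (MLXIPL), which bind DNA with their partner MLX at carbohydrate response elements when glucose 6-phosphate is plentiful.

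The upstream sequences of TXNIP and ARRDC4 are shown because these were the members that stood highest in control_GPR64. They are the 250 bases before each annotated start, from RefSeq on GRCh38.p14, 5′ to 3′. TXNIP lies on the minus strand, and its bases are chr1:145996580-145996829 (the more upstream of the gene's annotated starts). ARRDC4 lies on the plus strand, at chr15:97960453-97960702. Capitals mark matches to CACGTG (the E-box), to CACGNG followed after 5 bases by CNCGNG (a relaxed form of the paired carbohydrate response element) and to ATTGG (the inverted CCAAT box, CCAAT on the other strand), each searched on both strands.
TXNIP: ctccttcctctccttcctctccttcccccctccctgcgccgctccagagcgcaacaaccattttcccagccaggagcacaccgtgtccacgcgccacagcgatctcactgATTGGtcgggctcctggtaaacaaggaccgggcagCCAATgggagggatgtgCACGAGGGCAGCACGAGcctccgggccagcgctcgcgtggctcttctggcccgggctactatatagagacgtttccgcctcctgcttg
ARRDC4: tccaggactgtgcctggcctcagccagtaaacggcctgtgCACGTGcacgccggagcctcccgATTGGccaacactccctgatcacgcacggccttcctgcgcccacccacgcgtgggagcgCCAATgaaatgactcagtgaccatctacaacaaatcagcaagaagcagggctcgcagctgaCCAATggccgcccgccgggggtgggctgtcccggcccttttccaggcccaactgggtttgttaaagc

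TXNIP held a match to the paired element, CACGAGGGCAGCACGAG, from -88 to -72 relative to its start, and 2 CCAAT boxes upstream of it, at -140 and -105. No other window of the members matched this element. ARRDC4 held an E-box from -210 to -205 and 3 CCAAT boxes, the nearest at -67 to -63. MLX was the other member with an E-box, from -50 to -45. CCAAT boxes did not set TXNIP and ARRDC4 apart: ARRDC1, ARRDC2, ARRDC3, MLX and MLXIP also held a match, and MLXIPL did not. Windows of 300 bases, which run to 50 bases past the start, were available for all 8 members (3 of them with 2 starts). Over all 35116 such windows, 0.501% held the paired element, 7.26% an E-box and 34.6% an inverted CCAAT box. A match is a run of letters and not a measured binding site.

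**Figure D1:**
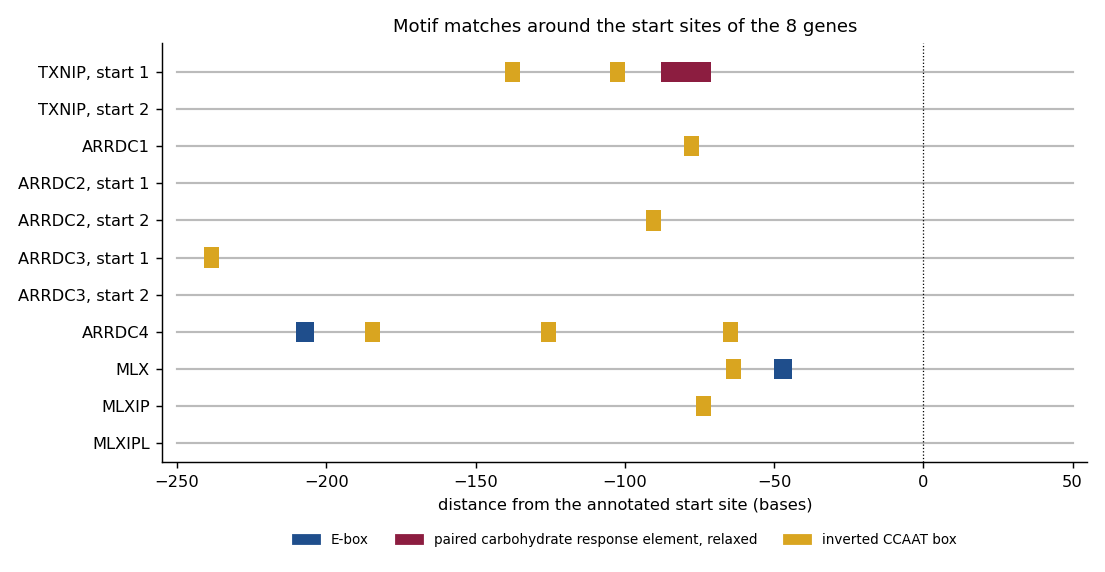
Motif matches in the windows from 250 bases before to 50 bases after each annotated start of the 8 genes, with the distance from the start in bases on the horizontal axis and 1 line per start. The paired element appears in TXNIP alone, from -88 to -72, and E-boxes appear in ARRDC4 and MLX.

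The GPR64 pair was sequenced less deeply than the SMPD1 pair: gene counts summed to 19614913 and 18849264 in control_SMPD1 and siSMPD1 but to 2882854 and 2534861 in control_GPR64 and siGPR64. Levels are given as CPM, counts per 1000000 gene counts with TMM factors applied to the library sizes, and intervals at 95% cover counting error only. For a count of 0, a floor of 3 counts corresponds to 0.156 to 1.18 CPM by library, and it entered no level, ratio or call. Each target was lower in its knockdown than in the control of its pair, SMPD1 at 91.7 against 414 CPM and GPR64 at 50.1 against 109 CPM. The libraries labelled as controls differed from each other for both targets. In control_GPR64, SMPD1 was at 52.8 CPM, 7.85-fold below control_SMPD1 (6.70 to 9.27) and below siSMPD1 as well, and GPR64 was 3.57-fold below control_SMPD1 (3.19 to 4.01). SiGPR64 is therefore also set against control_SMPD1. That comparison crosses the pairs, which differ in depth, so an effect of the knockdown and a difference between pairs cannot be told apart in it. Of 7 Ewing sarcoma markers, 6 were at 1 CPM or more in every library, with sums of 1070 to 1090 CPM. CD99 was listed at 0 in every library. Whether that reflects expression or how reads were counted was not tested, so it is not read as absence. Although the labels name muscle as the tissue, 4 to 8 of 8 skeletal muscle markers had no count, MYOD1 and MYOG in all libraries, and their sum was at most 0.52 CPM.

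A gene was called higher or lower when the mean of both libraries was at least 1 CPM, the ratio at least 2-fold and its counting interval clear of equality. All 8 members were measured by this minimum in every comparison. In siGPR64, 4 of 8 members were lower than in control_GPR64 and none higher, where 5.18% of 12830 measured genes were lower and 6.56% higher. In siSMPD1, 1 of 8 was lower than in control_SMPD1 and none higher, where 1.11% of 12749 were lower and 2.49% higher. Between the controls, 2 of 8 were higher in control_GPR64 and none lower, where 7.02% of 12798 genes were higher and 8.33% lower. The same 2 were higher in control_GPR64 than in siSMPD1, as were 8.02% of 12887 genes. The comparisons share libraries, so their values are set side by side and not counted as separate support. Since the members were picked on these contrasts, nothing is read from their counts. The median log2 ratio of the members was -0.81 in siGPR64 and -0.23 in siSMPD1 against the paired control, beside 0.01 and -0.00 over all measured genes.

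TXNIP had 1236 counts in control_SMPD1 and 793 in siSMPD1, and 1087 in control_GPR64 and 73 in siGPR64. Scaled, these are 64.3 CPM (60.8 to 68.0), 42.0 CPM (39.1 to 45.1), 372 CPM (351 to 395) and 28.6 CPM (22.4 to 36.0). Control_GPR64 was far above the other 3 libraries, with siGPR64 the lowest, and none of the 4 counting intervals overlapped. In bulk RNA a lower level in some cells and fewer cells with the transcript cannot be told apart.

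The ratio of TXNIP depended on which control was used. SiGPR64 was 12.9-fold below control_GPR64 (10.3 to 16.7) but 2.25-fold below control_SMPD1 (1.78 to 2.89). Of 12812 genes measured in the latter comparison, 5.25% were lower and 6.18% higher, and TXNIP was the single member past the rule. In siSMPD1 it was 1.53-fold below control_SMPD1 (1.40 to 1.68), short of 2-fold. Control_GPR64 was 5.78-fold above control_SMPD1 (5.33 to 6.28) and 8.85-fold above siSMPD1 (8.08 to 9.72). The knockdown libraries, compared directly, differed by 1.47-fold, with siGPR64 lower (1.16 to 1.89).

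ARRDC4, the closest in pattern among the paralogs and an adaptor for NEDD4-family ligases, had 112 and 53 counts in control_SMPD1 and siSMPD1, and 184 and 18 in control_GPR64 and siGPR64. Its levels were 5.83 CPM (4.80 to 7.01), 2.81 CPM (2.10 to 3.67), 63.0 CPM (54.3 to 72.8) and 7.05 CPM (4.18 to 11.1). As for TXNIP, control_GPR64 was the highest library by a wide margin. The lowest was siSMPD1, and siGPR64 and control_SMPD1 overlapped.

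In siGPR64, ARRDC4 was 8.74-fold below control_GPR64 (5.5 to 15.4). Against control_SMPD1 the same library was at 1.21-fold (0.692 to 2.0), so no lower level was seen there. In siSMPD1 ARRDC4 was 2.07-fold below control_SMPD1 (1.48 to 2.94), the single member past the rule in that pair and just inside its 2-fold limit. Control_GPR64 was 10.7-fold above control_SMPD1 (8.5 to 13.8) and 22.1-fold above siSMPD1 (16.5 to 31.1), the widest ratio of any member in these comparisons. SiGPR64 was 2.49-fold above siSMPD1 (1.38 to 4.36), whereas TXNIP was lower in that comparison without reaching 2-fold. Between the knockdown libraries ARRDC4 was the 1 member higher in siGPR64, and ARRDC1 and ARRDC3 were lower, where 5.96% of 12892 genes were higher and 6.35% lower.

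TXNIP and ARRDC4 were the members past the rule in control_GPR64 against each of the other 3 libraries. Over all genes, 1.86% of 13134 were higher in control_GPR64 by this criterion and 3.05% lower. By the same criterion ARRDC4 was lower in siSMPD1 than in each other library, as were 0.287% of 13224 genes, and 0.469% were higher. No other member stood apart in any library, where 0.341% of genes did in control_SMPD1 and 1.88% in siGPR64 in either direction.

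**Figure D2:**
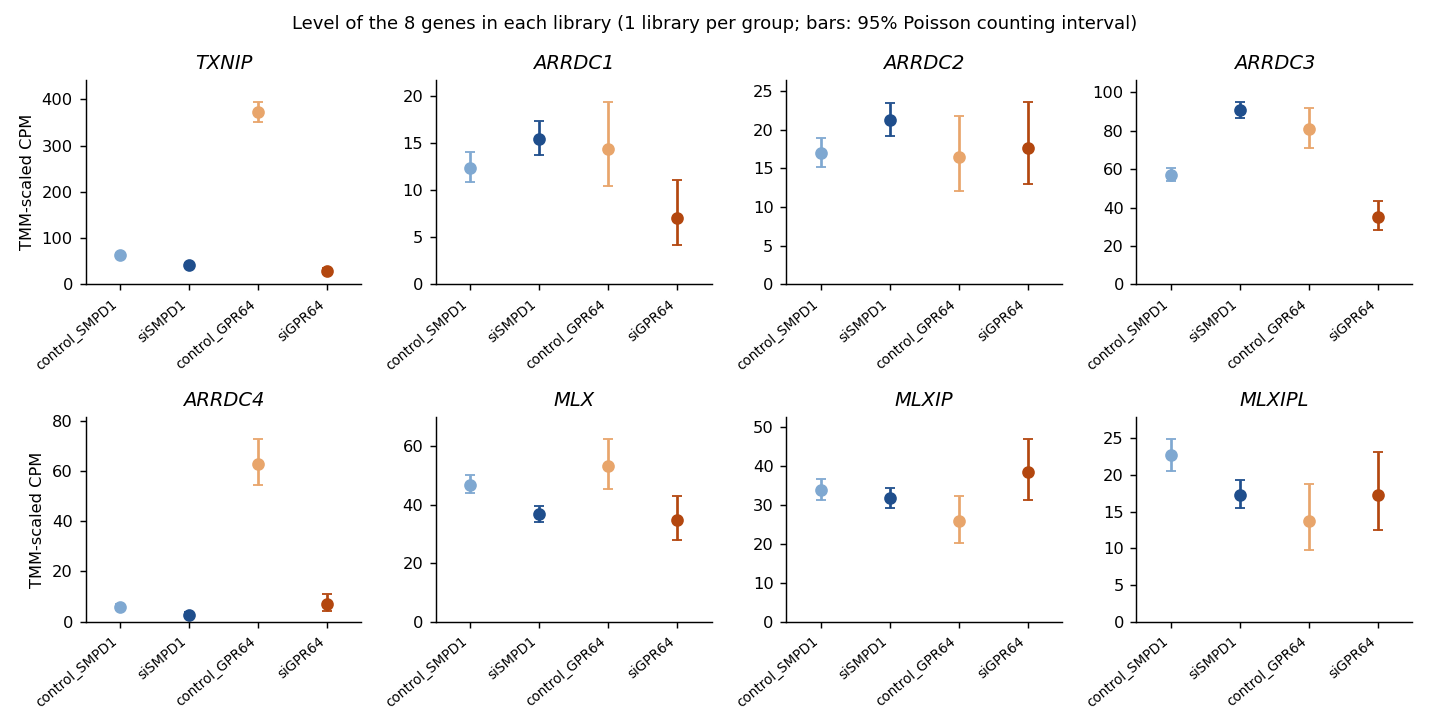
Level of each of the 8 genes in TMM-scaled CPM (vertical axis, from 0, scaled per gene) in the 4 libraries, as points with 95% Poisson counting intervals. TXNIP at 372 CPM and ARRDC4 at 63.0 CPM stand out in control_GPR64, while the transcription factor genes span less than 2-fold.

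ARRDC3, which links beta-adrenergic receptors and integrins to ubiquitination and sorting, moved differently. Its counts were 1098, 1714, 236 and 90. These correspond to 57.2 CPM (53.8 to 60.6), 90.8 CPM (86.6 to 95.2), 80.8 CPM (70.9 to 91.8) and 35.3 CPM (28.4 to 43.3). SiSMPD1 and control_GPR64 were highest and overlapped, and siGPR64 was lowest. It was 2.29-fold below control_GPR64 in siGPR64 (1.79 to 2.96) and 1.62-fold below control_SMPD1 (1.31 to 2.03), which is under 2-fold. In siSMPD1 it was 1.59-fold above control_SMPD1 (1.47 to 1.72), the opposite side from TXNIP and ARRDC4.

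ARRDC1, which drives budding of vesicles from the plasma membrane, had 238, 291, 42 and 18 counts. The levels were 12.4 CPM (10.9 to 14.1), 15.4 CPM (13.7 to 17.3), 14.4 CPM (10.4 to 19.4) and 7.05 CPM (4.18 to 11.1). It stood lowest in siGPR64, with an interval that reached those of control_SMPD1 and control_GPR64 but not that of siSMPD1. The other 3 intervals overlapped each other. The ratio to control_GPR64 was 2.01-fold lower (1.15 to 3.77), just inside the limit and resting on 18 reads. With a prior of 2 counts its log2 ratio was -0.96 and no longer past 2-fold. Against control_SMPD1 it was 1.75-fold lower (1.09 to 3.02).

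ARRDC2, a less studied paralog, had 326, 401, 48 and 45 counts in the same order. Its levels were 17.0 CPM (15.2 to 18.9), 21.2 CPM (19.2 to 23.4), 16.4 CPM (12.1 to 21.8) and 17.6 CPM (12.9 to 23.6). The highest library, siSMPD1, was 1.29 times the lowest, and the intervals of neighbours in the order of levels overlapped. SiSMPD1 lay above control_SMPD1, at 1.25-fold (1.08 to 1.45). In siGPR64 it was at 1.07-fold of control_GPR64 (0.698 to 1.64) and 1.04-fold of control_SMPD1 (0.743 to 1.42). The remaining family gene, ARRDC5, had no count in any library.

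The median log2 ratio of the 5 measured alpha-arrestin genes, all of them members, was -1.19 in siGPR64 against control_GPR64, -0.70 against control_SMPD1, and 0.32 in siSMPD1. The beta-arrestin genes ARRB1 and ARRB2, whose products end signalling of G protein-coupled receptors, were not past the rule in either pair. ARRB1 was 1.84-fold higher in siSMPD1 (1.73 to 1.97), and ARRB2 was 1.82-fold higher in siGPR64 (1.47 to 2.27), or 1.40-fold against control_SMPD1 (1.21 to 1.61).

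**Figure D3:**
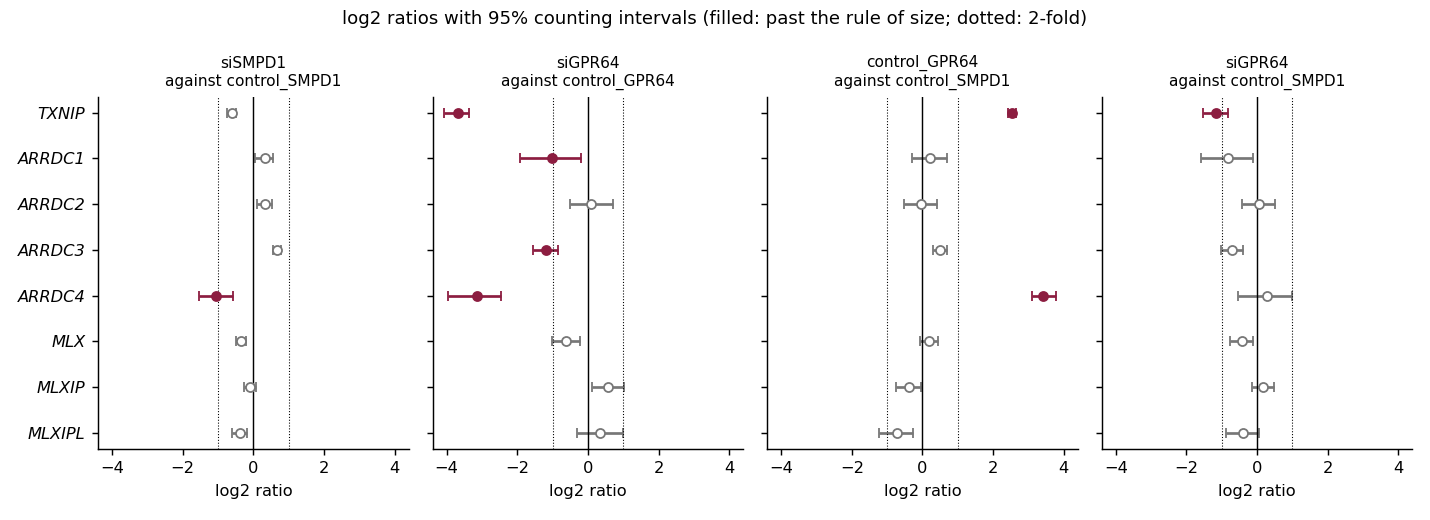
The log2 ratio of each member (horizontal axis) in 4 comparisons, with 95% counting intervals as bars; filled points are past the rule of size and dotted lines mark 2-fold. TXNIP is filled on the lower side of siGPR64 against either control, at -3.69 and -1.17, whereas ARRDC4 is at -3.13 against control_GPR64 and 0.27 against control_SMPD1.

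The transcription factor genes varied little beside TXNIP and ARRDC4. MLX, the shared DNA-binding partner, had 902, 693, 156 and 89 counts. Its levels were 46.9 CPM (43.9 to 50.1), 36.7 CPM (34.0 to 39.6), 53.4 CPM (45.4 to 62.5) and 34.9 CPM (28.0 to 42.9). Both knockdown libraries were below the control of their pair, by 1.28-fold (1.16 to 1.41) for siSMPD1 and 1.53-fold (1.17 to 2.01) for siGPR64, and neither was past 2-fold. Against control_SMPD1, siGPR64 was 1.35-fold lower (1.08 to 1.69). MLX overlaps the gene PSMC3IP on the opposite strand (GENCODE 29), and PSMC3IP has its own row in the counts. The sources used here do not state whether the counting used strand. How reads of the stretch shared by MLX and PSMC3IP were assigned is therefore not known. ARRDC1, ARRDC2 and ARRDC3 also overlap a gene on the opposite strand, and ARRDC1 and MLXIPL one on their own strand. Those partners, unlike PSMC3IP, have no row under these names in the count tables used here. Reads from them could thus be counted for the members, and this was not tested. TXNIP, ARRDC4 and MLXIP overlap no other annotated gene.

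MLXIP, which encodes MondoA, had 649, 596, 75 and 98 counts in the same order. The levels were 33.8 CPM (31.2 to 36.5), 31.6 CPM (29.1 to 34.2), 25.7 CPM (20.2 to 32.2) and 38.4 CPM (31.2 to 46.8). Control_GPR64, the library with the most TXNIP, held the lowest level of MLXIP, though on 75 counts. It was 1.31-fold below control_SMPD1 (1.03 to 1.69), and against siSMPD1 the interval included equality (1.23-fold lower, 0.966 to 1.58). MLXIP in siGPR64 was 1.49-fold higher than in control_GPR64 (1.09 to 2.05) and 1.14-fold against control_SMPD1 (0.909 to 1.41). In siSMPD1 it was 1.07-fold lower than in control_SMPD1 (0.956 to 1.2).

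MLXIPL, which encodes ChREBP and is best known in liver and fat, was detected in all libraries, with 436, 327, 40 and 44 counts. Its levels were 22.7 CPM (20.6 to 24.9), 17.3 CPM (15.5 to 19.3), 13.7 CPM (9.79 to 18.7) and 17.2 CPM (12.5 to 23.1). It too was lowest in control_GPR64, 1.65-fold below control_SMPD1 (1.2 to 2.35), but against siSMPD1 the interval included equality (1.26-fold lower, 0.909 to 1.8). SiSMPD1 was 1.31-fold below control_SMPD1 (1.13 to 1.52), and siGPR64 was at 1.25-fold of control_GPR64 (0.801 to 1.98). Against control_SMPD1, siGPR64 lay on the other side, 1.32-fold lower (0.964 to 1.84), and both siGPR64 intervals included equality. None of the 3 factor genes was past the rule in any of the 6 comparisons.

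The wider MAX and MLX network, 13 genes with MLX, MLXIP and MLXIPL among them, share a DNA-binding domain type and compete for partners. In siGPR64, where 5.18% of all measured genes were lower than in control_GPR64 and 6.56% higher, 1 of the 13 was lower and none higher. This was MXD1, a repressor that pairs with MAX, at 4.31 CPM against 12.3 CPM in control_GPR64, 2.79-fold lower (1.43 to 6.23), and 2.11-fold lower against control_SMPD1 (1.16 to 4.34). MXD4, of the same repressor group, was the 1 gene higher in siSMPD1, at 26.9 against 13.1 CPM, 2.06-fold (1.77 to 2.41). There 2.49% of all measured genes were higher and 1.11% lower. The medians of the network were 0.18 and -0.01, and 0.02 for siGPR64 against control_SMPD1.

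**Figure D4:**
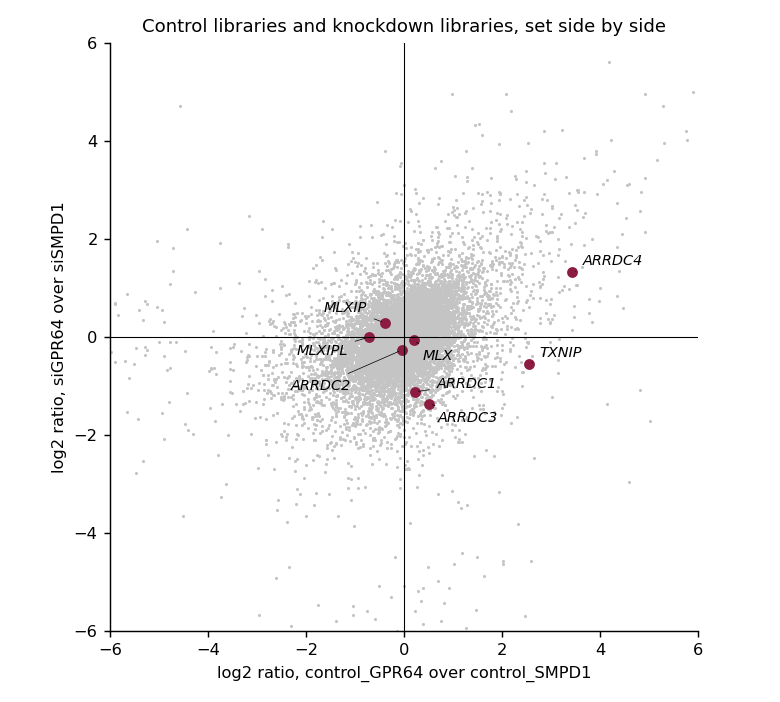
Each grey point is 1 of 12851 genes with a mean level of 1 CPM or more over the 4 libraries (a further 36 lie beyond the axes), plotted as the log2 ratio of the control libraries (horizontal) against that of the knockdown libraries (vertical), which share no library; members are red. ARRDC4 lies at 3.42 and 1.31, and TXNIP at 2.53 and -0.55.

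Genes reported as MondoA or ChREBP targets, 18 in all with TXNIP and ARRDC4 among them, did not shift together. In siGPR64, 1 of 14 measured was higher, 4 were lower and 9 were not past the rule, with a median log2 ratio of -0.21. Over all measured genes, 6.56% were higher and 5.18% lower there. TXNIP and ARRDC4, chosen with these values in view, were among the 4 lower. Against control_SMPD1, 2 of 15 were lower (TXNIP and ACLY) and none higher, with a median of -0.51. In that comparison 5.25% of all measured genes were lower and 6.18% higher. Beside the 2 members, the lower ones were RGS16, a regulator of G protein signalling, and ACLY, the enzyme that makes cytosolic acetyl-CoA. RGS16 stood at 47.8, 20.9, 114 and 45.0 CPM. It was thus highest in control_GPR64, as TXNIP was, and 2.53-fold lower in siGPR64 (2.04 to 3.16) but at 1.06-fold below control_SMPD1 (0.874 to 1.30).

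ACLY, chosen after its values were seen, was 2.47-fold below control_GPR64 (2.18 to 2.81) and 3.04-fold below control_SMPD1 (2.72 to 3.41). G0S2, an inhibitor of triglyceride breakdown, ran opposite to TXNIP: it was lowest in control_GPR64, at 4.45 CPM from 13 counts, and stood at 38.0 CPM in siGPR64, 8.24-fold higher (4.76 to 16.6). Against control_SMPD1, at 66.7 CPM, siGPR64 was 1.75-fold lower (1.43 to 2.18). In siSMPD1, 2 of 15 measured genes of the list were lower (ARRDC4, and RGS16 by 2.29-fold, 2.03 to 2.58) and 1 was higher (PNPLA3, a lipid droplet enzyme, by 2.90-fold, 2.53 to 3.35). The list's median there was 0.16. Over all measured genes, 1.11% were lower and 2.49% higher in siSMPD1.

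Genes whose promoter windows held the paired element, 121 of the 13774 counted genes with a window, were also counted, a breakdown chosen after values were seen. In siGPR64 against control_GPR64, 3.06% of 98 measured (3 genes) were lower and 9.18% (9 genes) higher. Of 8980 measured genes with a window, 5.17% were lower and 6.16% higher. The median log2 ratio of the genes with the paired element was 0.02. Of 1163 measured genes with an E-box, 3.70% were lower and 7.14% higher, with a median of 0.11. Against control_SMPD1, 7.45% of 94 genes with the paired element (7 genes) were lower and 6.38% (6 genes) higher. The shares over 8956 genes were 4.85% and 5.47%, and the median of the 94 was 0.04. With so few genes, nothing is read from the order of these shares. TXNIP, chosen on its values, is among the lower genes in both comparisons. For the E-box, 3.28% of 1160 were lower and 5.17% higher against control_SMPD1.

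The thioredoxin system, which TXNIP inhibits by binding thioredoxin, had 17 of 18 genes measured. In siGPR64, 3 were higher and 2 lower, beside 6.56% and 5.18% of all measured genes, with a median log2 ratio of 0.03. Against control_SMPD1, 1 was higher and none lower, beside 6.18% and 5.25% of all measured genes, with a median of 0.18. TXNRD1, the cytosolic thioredoxin reductase, stood at 613 against 292 CPM, 2.10-fold higher (1.93 to 2.29), but 1.46-fold against control_SMPD1 (1.38 to 1.54). SRXN1, which restores peroxiredoxins, was 2.56-fold higher (1.88 to 3.55) and 1.78-fold against control_SMPD1 (1.47 to 2.15).

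Among the methionine sulfoxide reductases, MSRB3 was 4.03-fold higher (1.23 to 25.3) on 3 counts in control_GPR64, and 2.35-fold higher than in control_SMPD1 (1.13 to 4.65). MSRA was 2.83-fold lower (1.65 to 5.29) and MSRB2 2.29-fold lower (1.26 to 4.54). Neither of the lower genes was past 2-fold against control_SMPD1, with log2 ratios of -0.96 and -0.47. In siSMPD1 none of the 17 was past the rule, with a median of 0.04. There 2.49% of all measured genes were higher and 1.11% lower.

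Of the NEDD4-family ligases, the partners of alpha-arrestins, 1 of 8 measured was lower in siGPR64 and none higher. Over all measured genes, 5.18% were lower and 6.56% higher. WWP1 stood at 7.05 CPM there, 16.1 in control_GPR64, 31.2 in control_SMPD1 and 34.1 in siSMPD1. It was 2.25-fold below control_GPR64 (1.30 to 4.18) and 4.41-fold below control_SMPD1 (2.78 to 7.52). NEDD4 itself was 1.85-fold lower in siGPR64 (1.55 to 2.21) and 1.47-fold lower in siSMPD1 (1.37 to 1.58), both under 2-fold. Against control_SMPD1, siGPR64 was 1.31-fold lower (1.13 to 1.53). The list medians were -0.23 and -0.21, and 0.04 for siGPR64 against control_SMPD1.

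Glucose transporter and hexokinase genes, which set the entry of glucose and its first phosphorylation, had a median log2 ratio of 0.76 in siGPR64 over 8 measured of 14, with 2 higher and none lower. Over all measured genes, 6.56% were higher and 5.18% lower there. Against control_SMPD1 the median was 0.35, with 1 higher, where 6.18% of all measured genes were higher and 5.25% lower. SLC2A3, a neuronal-type glucose transporter, stood at 80.3 CPM in siGPR64 and at 35.7, 22.7 and 36.7 CPM in control_SMPD1, siSMPD1 and control_GPR64. The ratio was alike against either control, 2.19-fold (1.73 to 2.79) and 2.25-fold (1.91 to 2.63). SLC2A8, an intracellular transporter, was 2.80-fold higher (1.57 to 5.47) and 1.88-fold against control_SMPD1 (1.30 to 2.68). HK1, the widespread hexokinase, was at 1.91-fold of control_GPR64 (1.73 to 2.11) but 1.09-fold of control_SMPD1 (1.02 to 1.17). SLC2A6 and SLC2A13 were also above control_GPR64 in siGPR64, short of the rule. Other genes of the list lay lower there: HK2 by 1.31-fold (1.11 to 1.55), SLC2A1 at 52.9 against 64.4 CPM, and SLC2A12 at 1.18 against 2.06 CPM. In siSMPD1, SLC2A6 was 2.79-fold higher (2.12 to 3.75), the list's single gene past the rule, and the median was 0.18. There 2.49% of all measured genes were higher and 1.11% lower.

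**Figure D5:**
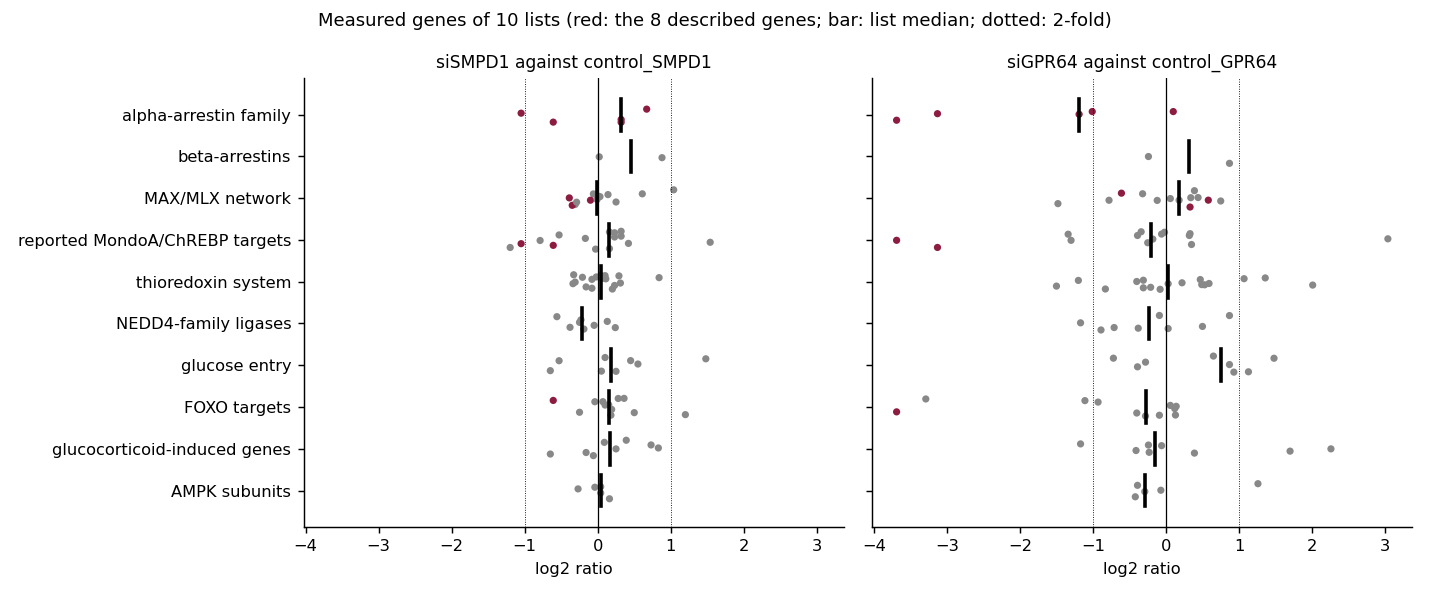
The log2 ratio (horizontal axis) of every measured gene of 10 lists in siSMPD1 and siGPR64, each against its paired control; red points are the 8 described genes, black bars are list medians and dotted lines mark 2-fold. TXNIP and ARRDC4 lie furthest left in siGPR64, with FBXO32 between them, while the medians of lists other than the alpha-arrestins lie between -0.29 and 0.76.

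The 6 genes whose profile over the 4 libraries was most like that of TXNIP were TRIB3, PHF21B, ZSCAN18, CTH, ADM2 and SESN2. Likeness was the root mean square difference of the log2 levels after removal of each gene's mean, over 9804 genes averaging 10 CPM or more, and is a description from 4 points. TRIB3, a pseudokinase, had a difference of 0.444, with 225, 91.5, 671 and 107 CPM. CTH, an enzyme of cysteine synthesis, had one of 0.537, with 64.2, 26.9, 195 and 38.8 CPM. SESN2, a stress-induced sestrin, had one of 0.602, with 67.4, 41.1, 178 and 43.5 CPM. Those of PHF21B, ZSCAN18 and the peptide hormone gene ADM2 were 0.526, 0.532 and 0.565. ARRDC4 ranked 26 by this measure at 0.733. PHF21B and ARRDC4 averaged 10 CPM through control_GPR64 alone and were below it in the other 3 libraries, so the minimum admitted them by the level that was ranked. Of the other members MLX came next, at rank 909, and MLXIP was the furthest, at rank 7769.

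Some markers of other cell types were lowest in control_GPR64, the library in which TXNIP and ARRDC4 were highest. The summed level of 4 epithelial markers was 85.3 CPM there and 147 to 180 CPM in the other libraries, mostly KRT8 and KRT18. The macrophage marker CD68 was at 2.74 CPM there and at 7.05 to 12.7 CPM elsewhere, 3.68-fold below control_SMPD1 (1.85 to 8.74). The fibroblast and endothelial markers did not set this library apart, with a sum of 111 CPM there and 76.1 to 133 CPM elsewhere. Reads not aligned uniquely followed the pair, at 21.4% and 20.1% of the entries in control_GPR64 and siGPR64 and 30.1% and 29.1% in the SMPD1 pair. The part of these in the levels of the members was not tested.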

How the data were processed

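Ribosome-depleted total RNA libraries of A673 cells were read from both ends, per the labels' protocols. Per the submitters' processing notes, the tools were HTSeq, TopHat2, SAMtools and bcl2fastq, and the build hg19; the sources used here do not state the annotation, versions or strand setting. The values that the authors deposited are unnormalized counts for each symbol; the 5 HTSeq summary lines (36.5% to 44.8% of entries) were left out. Groups and pairs follow the sample titles. The sources used here do not say whether a pair was cultured together.

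Counts were scaled with TMM factors (edgeR 4.0.16, R 4.3.3), over genes with at least 1 CPM in any library. For ratios 0.5 count was added, scaled to each library's size; intervals are exact Clopper-Pearson (ratios) or exact Poisson (levels) at 95%. Without molecular identifiers, reads are not independent molecules, so intervals cover counting error only. The rule of size was checked on simulated counts, which held counting error alone. With 1 library per group, and members chosen on their values, no test between groups was made. Upper quartile factors, DESeq2 1.42.0 size factors, plain totals, another fold limit, prior and filter were tried.

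Members and lists were chosen with earlier results of these data known. Genes named are the members, in each list up to 4 genes by size of ratio in siGPR64 and up to 2 in siSMPD1, and the 6 nearest TXNIP; not all are printed. Protein sequences were not analysed here. The sum of 1 marker list is not reported here. Promoter windows are on another build than the counts and were matched by symbol.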

Additional observations from a re-analysis of the deposited data

Results flagged for a closer look

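ARRDC3 and ARRDC1 lay on opposite sides of equality in the knockdown pairs, with both counting intervals clear of it. ARRDC3 had a log2 ratio of 0.67 in siSMPD1 against control_SMPD1 and of -1.19 in siGPR64 against control_GPR64. ARRDC1 had log2 ratios of 0.32 and -1.01. The differences between the pairs were not tested, since each group has 1 library. Against control_SMPD1, siGPR64 was also lower for both genes, with log2 ratios of -0.70 and -0.81.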

How the results depend on the processing

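No direction changed for a member past the rule. With scaling by DESeq2 size factors, plain totals or upper quartile factors, and with a prior of 2 counts, all 192 recomputed log2 ratios of members lay inside their counting intervals, and all 80 list medians moved by at most 0.1. List medians were recomputed only for each knockdown against the control of its pair. Those of siGPR64 against control_SMPD1 were not recomputed. Of 42 recomputed counts of members, 40 stayed within 1.5 times. With a 1.5-fold limit the count of members rose from 1 to 3 in siSMPD1 against control_SMPD1 (TXNIP, ARRDC3 and ARRDC4), and from 1 to 3 in siGPR64 against control_SMPD1 (TXNIP, ARRDC1 and ARRDC3), since the limit itself was lower. At the 1.5-fold limit MLX was also called in siGPR64 against control_GPR64 (5 members in place of 4). MLXIPL was called in control_GPR64 against control_SMPD1 (3 in place of 2). The prior of 2 counts, as applied to counts of members, was chosen after seeing the data. It left 3 of 4 members past the rule in siGPR64 against control_GPR64, without ARRDC1. No paired analysis was possible because each group holds 1 library and no label numbers replicates. The depth of the GPR64 pair limits low genes, where 1 count is 0.343 or 0.392 CPM.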

Other observations

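Genes induced by FOXO factors or by glucocorticoids, further inputs known for TXNIP, were read as lists. Over all measured genes, 5.18% were lower and 6.56% higher in siGPR64, and 5.25% and 6.18% against control_SMPD1. In siSMPD1 these shares were 1.11% and 2.49%. Of 11 measured FOXO targets (TXNIP included), 2 were lower in siGPR64 and none higher, with a median log2 ratio of -0.28. Against control_SMPD1, TXNIP alone was lower and the median was -0.02. FBXO32, a muscle ubiquitin ligase component, stood at 2.29 and 2.23 CPM in control_SMPD1 and siSMPD1, and at 9.25 and 0.783 CPM in control_GPR64 and siGPR64. Its ratio to control_GPR64 was 9.76-fold lower (2.97 to 102) on 2 counts, and against control_SMPD1 its interval included equality (0.763 to 24.9). CITED2, a transcriptional coregulator, was 2.37-fold higher in control_GPR64 than in control_SMPD1 (2.23 to 2.51) and 1.90-fold lower in siGPR64 than in control_GPR64 (1.74 to 2.08). Against control_SMPD1, siGPR64 was on the other side for CITED2, 1.25-fold higher (1.15 to 1.35). In siSMPD1 the 1 gene past the rule was PIK3IP1, 2.30-fold higher (1.19 to 4.91) on 30 and 13 counts.

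Of 8 glucocorticoid-induced genes, 2 were higher and 1 lower in siGPR64, beside 6.56% and 5.18% of all measured genes, with a median of -0.15. TSC22D3, a leucine zipper protein, was highest in control_GPR64 at 79.8 CPM and 2.26-fold lower in siGPR64 (1.77 to 2.92), but at 1.07-fold below control_SMPD1 (0.862 to 1.35). ZBTB16 and the kinase gene SGK1 ran the other way and were lowest in control_GPR64, at 2.40 and 37.3 CPM, and stood at 12.1 and 122 CPM in siGPR64. Against control_SMPD1, at 13.0 and 65.4 CPM, siGPR64 was at 1.07-fold lower for ZBTB16 (0.733 to 1.60) and 1.86-fold higher for SGK1 (1.64 to 2.11), neither past the rule. The list's median was 0.55 there, with 1 gene higher, DUSP1, named after its value was seen. DUSP1 stood at 6.87, 6.57, 23.0 and 21.9 CPM, so that ratio followed the pair. In siGPR64 it was at 1.05-fold below control_GPR64 (0.723 to 1.52). None of the 8 was past the rule in siSMPD1. Of 5 measured subunit genes of AMPK, the energy-sensing kinase, PRKAG2 was higher in siGPR64, by 2.39-fold (1.48 to 4.07), but at 1.34-fold of control_SMPD1 (0.983 to 1.80), where none of the 5 was past the rule. None was in siSMPD1.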
